A study of Mus musculus with 71 samples.

Results

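Foxp2, Foxp1 and Foxp4, 3 forkhead genes of 1 subfamily, were followed in mouse striatum by 3 of the 15768 gene rows measured on 71 oligonucleotide arrays. They were selected by Ensembl gene identifier alone: ENSMUSG00000029563_at for Foxp2, ENSMUSG00000030067_at for Foxp1 and ENSMUSG00000023991_at for Foxp4. All 3 were among the 9461 genes left after the dimmest 40% of rows were dropped. Each array held the striatal RNA of 1 mouse, with 1 exception of line Ko whose label names a pair of litters.

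The proteins encoded by these genes are transcription factors that bind DNA through a forkhead domain and pair with themselves and with each other through a leucine zipper, mostly repressing their targets. In the striatum Foxp1 is widely expressed by the spiny projection neurons, Foxp2 is expressed by a part of them and is also found in deep cortical layers and thalamus, and Foxp4 is best known from the developing brain. Because the proteins can form mixed pairs, the amounts of Foxp1 and Foxp4 are of interest when the dose of Foxp2 is lowered. People with a disrupted copy of FOXP2 have impaired speech and language, and the human protein carries amino acid changes that are absent from the mouse protein.

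Mice of 3 lines were compared, all made from C57BL/6 embryonic stem cells. The Foxp2hum allele carries the human state at 2 positions of exon 7 of the endogenous mouse gene, so it has no transgenic promoter. In line Ki (stem cell clone 5H11, with the neomycin cassette taken out) 11 homozygous Foxp2hum/hum juveniles were set against 6 Foxp2wt/wt juveniles, and in line Ki2, from another clone, 13 Foxp2hum/hum embryos against 12 Foxp2wt/wt embryos and 6 Foxp2hum/hum adults against 5 Foxp2wt/wt adults. In line Ko, made from clone 5H11 chimeras with a Cre deleter, 12 heterozygous Foxp2wt/ko juveniles were set against 6 Foxp2wt/wt juveniles. These carriers kept 1 intact allele, and no animal without Foxp2 was studied. Each line rests on 1 stem cell clone. The labels name the clone of Ki2 as 5H10 in one field and as 5C10 in another. Juveniles were 15, 18 or 21 days old, embryos were taken at E16.5, and adults were 95 days old and all female. Below, ko stands for Foxp2wt/ko, hum for Foxp2hum/hum and wt for Foxp2wt/wt.

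The arrays were run in 6 batches: runs 1 to 3 held the juveniles, runs 4 and 5 the embryos and run 6 the adults. Embryonic and adult striata were dissected whole, with caudate, putamen and pallidum, whereas juvenile tissue came as punches of 2 mm across. The amount of RNA labelled was 3.5 micrograms per embryo, 3.3 per adult and 1 per juvenile. Values are the deposited log2 expression values, whose array medians lay between 6.82 and 6.98. Juvenile values and Ki2 values were written with different numbers of decimals and may have been normalised apart, so levels of juveniles and of Ki2 mice are set side by side and were not tested against each other. A log2 level says nothing of how one gene compares with another, since each gene has probes of its own. The striatal, cortical and thalamic marker genes could not be looked up, because none of the identifiers was paired with a symbol in the sources used here, so the labelled tissue was not checked against markers. In such bulk tissue, fewer cells of a type and less RNA per cell cannot be told apart. 1 wt juvenile of line Ki, labelled female, had the level of a strongly sex-dependent transcript at 4.49, within the male range of 4.28 to 4.89 and below the lowest other female at 9.93. Its own levels were 9.73 for Foxp2, 11.1 for Foxp1 and 7.62 for Foxp4, and no tested juvenile comparison of the 3 genes changed direction or its side of the threshold without it.

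Foxp2 was lower in every ko juvenile than in any wt juvenile of line Ko. The 12 ko arrays read from 8.58 to 9.40 with a median of 9.20, and the 6 wt arrays from 9.42 to 10.0 with a median of 9.74. The groups did not overlap, although only a narrow gap separated the brightest ko array from the dimmest wt array. The ko arrays also lay below all 23 other juvenile arrays, which reached down to 9.42. The ko mice averaged 9.12 ± 0.23 (SD, n = 12), and their wt counterparts averaged 9.71 ± 0.22 (SD, n = 6).

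In the limma fit over the 35 juvenile arrays, with group, age, sex and run as terms, Foxp2 fell by 0.59 on the log2 scale in ko (SE 0.084, adjusted p = 0.000829 after Benjamini-Hochberg adjustment over 9461 genes). This difference left 66.6% of the wt level, with a 95% confidence interval of 59.1% to 75.0%, which does not reach down to the 50% of a halved signal. These are shares of array signal, and how they relate to shares of RNA was not tested. Foxp2 was the gene with the smallest p and the only gene past the threshold of 0.05, 0.0106% of those tested. It was also the only gene lower in every ko array than in every wt array, again 0.0106% of those tested. No Foxp2 level in line Ko went against its genotype label. Where the array probes lie relative to the deleted part of Foxp2 is not given in the sources used here.

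The Foxp2 difference had the same direction in every subset of juveniles. It was -0.49 in run 1 (SE 0.19), -0.58 in run 2 (SE 0.14) and -0.70 in run 3 (SE 0.14), each from the arrays of that run alone. By age it was -0.59 at 15 days (SE 0.16), -0.63 at 18 days (SE 0.17) and -0.56 at 21 days (SE 0.16). In females it was -0.57 (SE 0.12) and in males -0.61 (SE 0.12). The change of the difference from 15 to 21 days was 0.03 (95% confidence interval -0.43 to 0.49), and that from females to males was -0.04 (-0.39 to 0.31). Both intervals are wide and hold values of either sign, so they do not show an age course or sex dependence to be absent. Of all genes, 0% passed the threshold in either test.

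Line Ko had 3 litters with both genotypes on separate arrays, and Foxp2 was lower in ko within each. In litter 8 the ko mice averaged 8.89 and the wt mouse read 9.42, a difference of -0.53. In litter 10 the 4 ko mice averaged 9.24 and the 2 wt mice 9.76, a difference of -0.52. In litter 12 the 3 ko mice averaged 9.11 and the 2 wt mice 9.65, a difference of -0.54. With line Ko fitted alone the difference was -0.60, close to that of all juveniles, but its adjusted p was 0.0709 in limma, and within single runs, ages or sexes the adjusted p also missed the threshold.

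**Figure D1:**
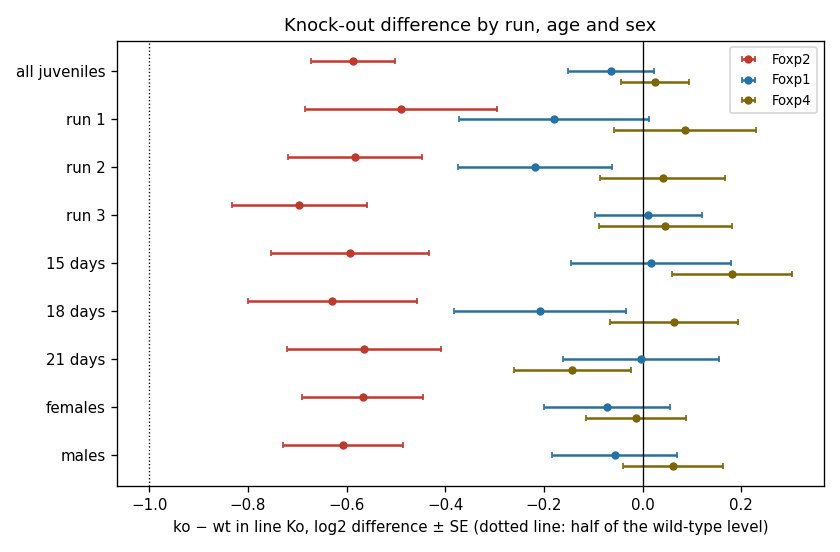
Difference of ko and wt mice of line Ko on the log2 scale (horizontal axis; points with SE bars) for Foxp2, Foxp1 and Foxp4, in all juveniles and by run, age and sex. All Foxp2 points lie between -0.70 and -0.49, right of the dotted line at a halved signal. The Foxp1 points lie between -0.22 and 0.02, mostly below 0, and the Foxp4 points between -0.14 and 0.18.

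No change of the paralogs was detected in the same mice. Foxp1, the paralog that striatal projection neurons express most broadly, read from 10.9 to 11.7 in the 12 ko arrays (median 11.4) and from 11.3 to 11.5 in the 6 wt arrays (median 11.4). The ko arrays reached both above and below the wt arrays, with 4 below all of them and 2 above all of them. The difference was -0.06 (SE 0.087, adjusted p = 1.0 in limma), with a 95% confidence interval of 84.5% to 108% of the wt level. With litter as a fixed replicate block the Foxp1 difference was -0.16 (SE 0.086), at 89.4% of the wt level. It did not pass the threshold (p = 0.075 in limma before adjustment).

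The ko arrays differed more among themselves in Foxp1 than the wt arrays did, with an SD of 0.27 (n = 12) against 0.09 (n = 6); this difference in spread was not tested. The 2 lowest ko arrays, at 10.87 and 10.88, came from litters 10 and 8, from runs 2 and 1, and both were females. The array at 10.88, ko replicate 1, was also the lowest ko array in Foxp2, at 8.58, and the highest in Foxp4, at 7.55. The other ko mice of litters 10 and 8 read from 11.31 to 11.48, so neither litter was low as a whole.

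Foxp4 read from 6.95 to 7.55 in the ko arrays (median 7.23) and from 7.04 to 7.39 in the wt arrays (median 7.20). The wt range lay inside the ko range. The difference was 0.02 (SE 0.069, adjusted p = 1.0 in limma), with a 95% confidence interval of 92.3% to 112% of the wt level. By age the Foxp4 difference went from 0.18 (SE 0.12) at 15 days to 0.06 (SE 0.13) at 18 days and -0.14 (SE 0.12) at 21 days; the change from 15 to 21 days was -0.32 (95% confidence interval -0.67 to 0.03, adjusted p = 1.0 in limma), which did not pass the threshold.

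The humanised allele left Foxp2 near its wt level in juveniles. The 11 hum arrays of line Ki read from 9.60 to 10.0 with a median of 9.72, and the 6 wt arrays from 9.49 to 9.83 with a median of 9.74. The medians were almost equal and the ranges overlapped. The fitted difference was 0.11 (95% confidence interval -0.06 to 0.29, adjusted p = 1.0 in limma). Foxp1 differed by 0.11 (-0.07 to 0.29) and Foxp4 by -0.10 (-0.24 to 0.04), and neither passed the threshold; 0% of all genes did.

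The effects of the 2 alleles on Foxp2 differed from each other. The hum effect minus the ko effect was 0.70 for Foxp2 (SE 0.12, adjusted p = 0.0215 in limma), and Foxp2 was the only gene past the threshold, 0.0106% of those tested. For Foxp1 it was 0.17 (95% confidence interval -0.08 to 0.43) and for Foxp4 -0.13 (-0.33 to 0.07). When run was left out of the fit, the Foxp2 value was 0.69 with an adjusted p of 0.103. The wt mice of the pair of lines, which serve as the separate references of both effects, differed by -0.01 for Foxp2 (-0.21 to 0.19), -0.15 for Foxp1 (-0.36 to 0.05) and 0.09 for Foxp4 (-0.07 to 0.25), Ki minus Ko, with 0.0106% of all genes past the threshold.

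**Figure D2:**
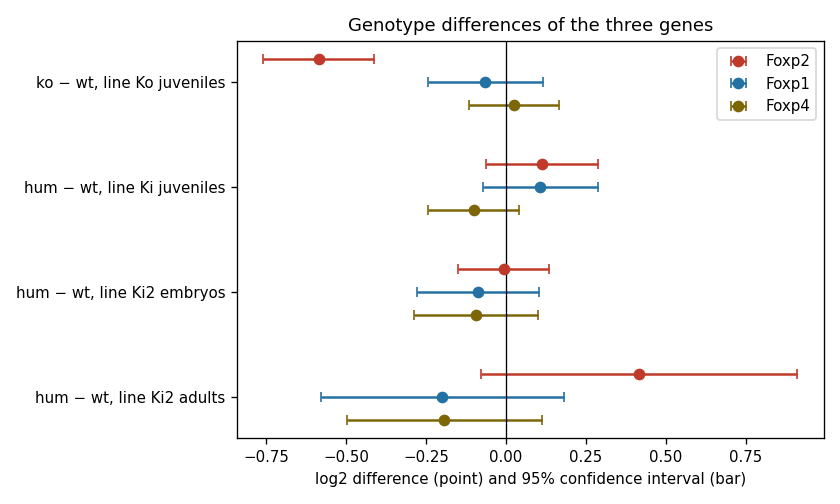
Genotype differences on the log2 scale (horizontal axis; points with 95% confidence intervals as bars) of Foxp2, Foxp1 and Foxp4 in juveniles of lines Ko and Ki, and in embryos and adults of line Ki2. The Foxp2 interval of the ko mice, -0.76 to -0.41, is the only one of the 12 that excludes 0.

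In embryos, hum and wt mice could hardly be told apart in Foxp2. The 13 hum arrays read from 9.40 to 10.7 with a median of 10.1, and the 12 wt arrays from 9.24 to 10.8 with a median of 10.2. The fitted difference, with sex and run as terms, was -0.01 (95% confidence interval -0.15 to 0.14). Foxp1 differed by -0.09 (-0.28 to 0.10) and Foxp4 by -0.09 (-0.29 to 0.10), and 0% of all genes passed the threshold.

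Split by run, the hum differences of the paralogs lay on opposite sides of 0. In run 5 alone Foxp1 was at -0.25 (SE 0.10) and Foxp4 at -0.27 (SE 0.098), with adjusted p of 0.406 and 0.352 in limma; in run 4 alone they were at 0.09 (SE 0.17) and 0.07 (SE 0.19). The hum effect of run 5 minus that of run 4 was -0.40 for Foxp1 (95% confidence interval -0.79 to -0.01) and -0.42 for Foxp4 (-0.81 to -0.03), but the adjusted p were 0.605 and 0.594; it was -0.10 for Foxp2 (-0.41 to 0.21), and 0.0106% of all genes passed the threshold. In run 4 all 6 hum embryos were female, whereas 3 of the 5 wt embryos were male; without sex in the fit the values were -0.27 for Foxp1 (SE 0.18) and -0.22 for Foxp4 (SE 0.19). Among the 3 litters of run 5, hum minus wt for Foxp4 was -0.30, -0.37 and 0.18, and for Foxp1 -0.28, -0.29 and -0.04. Litter 21, the only mixed litter of run 4, stood at 0.23 for Foxp4 and -0.51 for Foxp1, with 1 hum mouse. The direction of Foxp4 thus differed among litters, while Foxp1 was lower in hum in all 4 mixed litters; with litter as a fixed replicate block the Foxp1 difference was -0.28 (SE 0.10) and its adjusted p 0.879.

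Among genotype, sex and run, run gave the largest difference in embryos for each of the 3 genes. In run 4 the 11 arrays read 9.24 to 9.68 for Foxp2 (median 9.44), 9.18 to 9.96 for Foxp1 (median 9.47) and 7.11 to 7.94 for Foxp4 (median 7.31). In run 5 the 14 arrays read 10.1 to 10.8 for Foxp2 (median 10.5), 10.4 to 11.5 for Foxp1 (median 11.0) and 8.16 to 9.14 for Foxp4 (median 8.89). Each gene was higher in every run 5 array than in any run 4 array, a pattern shown by 11.4% of all genes.

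The fitted difference, run 5 minus run 4, was 1.06 for Foxp2 (SE 0.074, adjusted p = 1.11e-12 in limma), a fold of 2.09. It was 1.43 for Foxp1 (SE 0.099, adjusted p = 1.01e-12), a fold of 2.69, and 1.39 for Foxp4 (SE 0.10, adjusted p = 2.28e-12), a fold of 2.62. Of all genes, 66.9% passed the threshold, so passing it sets the 3 genes apart little. Of all genes, 2.55% passed it and were over 2-fold higher in run 5, as all 3 were. With quantile normalization Foxp2 stood at 0.97, just under 2-fold, and Foxp1 and Foxp4 at 1.36 and 1.28. By size of the difference Foxp1 ranked 76th, Foxp4 89th and Foxp2 259th of the 9461 genes. No litter was divided over the runs: litters 15, 19, 21, 22 and 23 were in run 4 and litters 16, 17 and 18 in run 5. The labels mention that embryos were prepared in more than 1 batch, without tying a batch to a run. Run, litter and preparation therefore cannot be told apart.

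**Figure D3:**
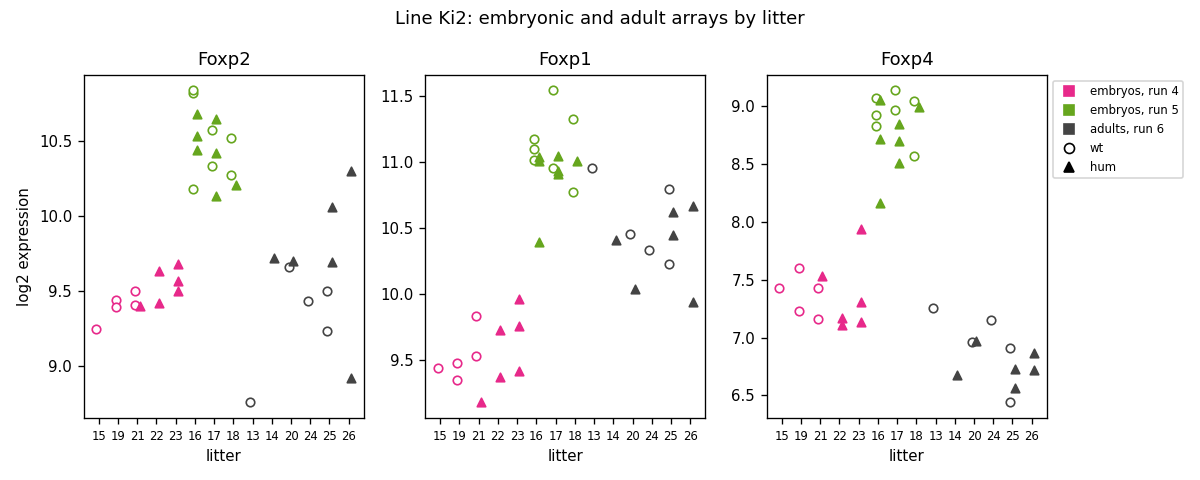
Log2 expression (vertical axis) of each gene in the line Ki2 arrays by litter (horizontal axis), with run by colour, open circles for wt and triangles for hum. For each gene the litters of run 5 lie above those of run 4, and the Foxp1 and Foxp2 levels of the adults (run 6) fall between or across the embryonic runs.

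Sex made no difference that passed the threshold for any of the genes. Among embryos, male minus female was -0.16 for Foxp2 (95% confidence interval -0.32 to -0.01, adjusted p = 0.552 in limma), 0.10 for Foxp1 and 0.18 for Foxp4. Among juveniles it was 0.09 for Foxp2, 0.06 for Foxp1 and -0.02 for Foxp4. At either stage 0.0423% of all genes passed the threshold. In run 5, where 5 females and 9 males were measured, Foxp2 averaged 10.6 ± 0.23 (SD) in females and 10.4 ± 0.18 in males.

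In adults, Foxp2 tended to read higher in hum than in wt mice, without passing the test. The 5 wt arrays read 8.76, 9.23, 9.43, 9.50 and 9.66, and the 6 hum arrays from 8.92 to 10.3 with a median of 9.71. Of the hum arrays, 5 lay above every wt array and 1 fell below all but the lowest wt array. The difference was 0.42 (SE 0.23, 95% confidence interval -0.08 to 0.91, adjusted p = 0.715 in limma), with 0% of all genes past the threshold. The interval covers both no difference and a rise to 188% of the wt level. With array quality weights the difference was 0.22 (SE 0.22, adjusted p = 0.523).

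For Foxp1 the 5 wt adults read 10.2, 10.3, 10.5, 10.8 and 11.0 and the hum adults from 9.94 to 10.7 (median 10.4). For Foxp4 the wt adults read 6.44, 6.91, 6.96, 7.15 and 7.26 and the hum adults from 6.57 to 6.97 (median 6.72). Both genes overlapped between genotypes, with differences of -0.20 for Foxp1 (95% confidence interval -0.58 to 0.18) and -0.19 for Foxp4 (-0.50 to 0.11). The adult arrays fell into 2 sets on their first principal component, which held 49.3% of the variance, with hum replicates 1, 4 and 5 and wt replicates 1 and 5 in the lower set. With that component as a covariate, an alternative chosen after seeing the data, the Foxp2 difference was 0.46 (SE 0.21, adjusted p = 0.327 in limma). The sign of the component was set to follow Foxp2, so which set is called lower depended on Foxp2 itself. The lowest Foxp2 values of both genotypes, 8.76 in wt and 8.92 in hum, were in the lower set. That set also held hum replicate 4 at 10.1, against 10.3 for the highest hum adult.

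Litters 20 and 25 held adults of both genotypes. In litter 20 Foxp2 was 9.70 in the hum mouse and 9.66 in the wt mouse. In litter 25 it was 9.69 and 10.1 in the hum mice and 9.23 and 9.50 in the wt mice. The hum effect in adults minus that in embryos was 0.39 for Foxp2 (95% confidence interval -0.33 to 1.12), -0.15 for Foxp1 (-1.06 to 0.75) and -0.14 for Foxp4 (-1.01 to 0.73). None passed the threshold, and 0% of all genes did.

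From embryo to adult, Foxp4 was the gene of the 3 that fell under every choice of embryos. The 11 adult arrays of line Ki2 read from 6.44 to 7.26 (median 6.86) and the 25 embryonic arrays from 7.11 to 9.14 (median 8.51). All 11 adults lay below all embryos of run 5, as did adults for 22.1% of genes, and 9 of them below all embryos of run 4. Foxp4 fell by 1.00 on the log2 scale (SE 0.24, adjusted p = 0.000356 in limma with stage and genotype groups and sex as terms). This left 49.9% of the embryonic level as fitted. In that fit 78% of all genes passed the threshold. It had no run term, and with all adults female its sex term came from the embryos alone. Females numbered 8 in run 4 and 5 in run 5, and males 3 and 9, so this term mixes sex with run. The plain means were 8.18 in embryos and 6.84 in adults. The same mixing affects the values of Foxp1 and Foxp2 against all embryos. Against embryos of run 4 alone it fell by 0.48 (SE 0.13, adjusted p = 0.00162), and against those of run 5 alone it fell by 1.77 (SE 0.12, adjusted p = 7.13e-13). These comparisons share the adult arrays, and 76.1% and 73.4% of all genes passed the threshold in them.

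For Foxp1 the direction from embryo to adult depended on the run of the embryos. The adults read from 9.94 to 11.0 (median 10.4), and 10 of them lay above every run 4 embryo, whereas none lay above every run 5 embryo. Against all embryos the difference was 0.38 (95% confidence interval -0.13 to 0.90, adjusted p = 0.164 in limma), and 0.080 without sex in the fit. Against run 4 alone Foxp1 rose by 0.93 (SE 0.14, adjusted p = 2.56e-06), and against run 5 alone it fell by 0.42 (SE 0.14, adjusted p = 0.00819).

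Foxp2 also depended on the embryos chosen. The adults read from 8.76 to 10.3 (median 9.66), with 10 of 11 below every run 5 embryo, and with 5 above and 3 below every run 4 embryo. Against all embryos the difference was -0.39 (95% confidence interval -0.80 to 0.02, adjusted p = 0.0732 in limma). Against run 4 alone it was 0.10 (SE 0.15, adjusted p = 0.566), and against run 5 alone Foxp2 fell by 1.10 (SE 0.16, adjusted p = 1.54e-06). Each stage has runs of its own, so stage and run cannot be told apart for any of the genes. In wt mice alone Foxp2 fell by 0.80 and passed the threshold (adjusted p = 0.0378), whereas with array quality weights over all mice the difference was -0.074 (adjusted p = 0.699).

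**Figure D4:**
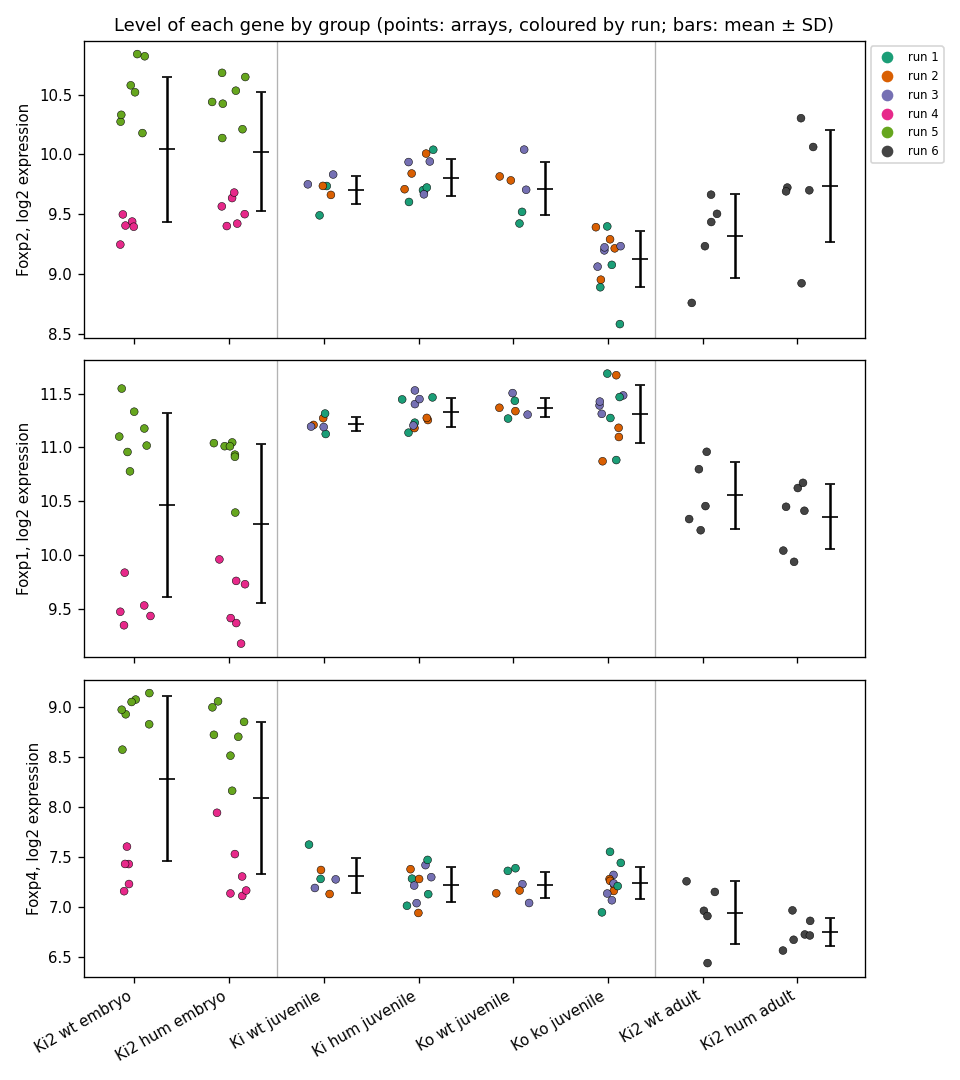
Log2 expression (vertical axes) of Foxp2, Foxp1 and Foxp4 in the 8 groups, ordered by stage; points are arrays coloured by run and bars show the mean ± SD. Grey lines part the stages. The lowest Foxp2 mean is that of the ko juveniles, 9.12, the highest Foxp1 means are those of the juveniles and the highest Foxp4 means those of the embryos with both runs pooled.

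Ordered by mean with both embryonic runs pooled, Foxp2 stood at 10.0 ± 0.61 in wt embryos (SD, n = 12), 10.0 ± 0.50 in hum embryos (n = 13), 9.80 ± 0.15 in Ki hum juveniles (n = 11), 9.73 ± 0.47 in hum adults (n = 6), 9.71 ± 0.22 in Ko wt juveniles (n = 6), 9.70 ± 0.12 in Ki wt juveniles (n = 6), 9.32 ± 0.35 in wt adults (n = 5) and 9.12 ± 0.23 in ko juveniles (n = 12). Each neighbouring pair in this order differs by less than its larger SD except Ki wt juveniles and wt adults, which belong to the separately written sets of values. Foxp1 was highest in the juveniles, from 11.2 ± 0.07 in Ki wt to 11.4 ± 0.09 in Ko wt (SD, n = 6 each), and lower in the other stages, with 10.6 ± 0.31 and 10.4 ± 0.30 in wt and hum adults and 10.5 ± 0.85 and 10.3 ± 0.74 in wt and hum embryos. Foxp4 was highest in the embryos at 8.29 ± 0.83 in wt and 8.09 ± 0.76 in hum, intermediate in the juveniles at 7.22 to 7.31, and lowest in the adults at 6.95 ± 0.31 in wt and 6.75 ± 0.14 in hum. The wide embryonic SDs hold both runs, and the place of the embryos in each order depends on the run: the run means were 9.47 in run 4 and 10.5 in run 5 for Foxp2, 9.55 and 11.0 for Foxp1, and 7.37 and 8.83 for Foxp4. Run 4 embryos thus stood near the juveniles in Foxp4 and below the wt and hum juveniles in Foxp2, and run 5 embryos stood near the juveniles in Foxp1.

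Over the juveniles of all groups together, Foxp4 declined from 15 to 21 days. The 12 arrays at 15 days read from 7.04 to 7.62 (mean 7.36), the 11 at 18 days from 6.94 to 7.47 (mean 7.23) and the 12 at 21 days from 6.95 to 7.30 (mean 7.14). The ranges overlapped, and the highest values shifted down at each step. From 15 to 21 days Foxp4 fell by 0.21 on the log2 scale (SE 0.056, adjusted p = 0.00491 in limma), to 86.4% of its level at 15 days, while 29.6% of all genes passed the threshold.

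The 3-day steps were -0.11 each and did not pass the threshold, which 7.82% of all genes passed from 15 to 18 days and 0.856% from 18 to 21 days. The direction of Foxp4 from 15 to 21 days was the same in runs 1, 2 and 3, at -0.36, -0.15 and -0.10, and in lines Ki and Ko, at -0.25 and -0.18, but within none of them did it pass the threshold. In line Ko the ko mice went from a mean of 7.38 at 15 days (n = 4) to 7.11 at 21 days (n = 5), whereas the wt mice stood at 7.22, 7.25 and 7.20 at 15, 18 and 21 days (n = 2 each). Litters mostly hold 1 age: with litter as a fixed replicate block the value was -0.15 (SE 0.15, adjusted p = 0.794). That block compares ages only within litters 10 and 12 of line Ko, the only blocks with mice of different ages. The array of 21 days whose label names litters 7 and 10 formed a block of its own, apart from the mouse of 18 days of litter 7. The only mouse of 15 days in litter 10 was ko replicate 3, and the only one of 21 days in litter 12 was ko replicate 8. The age values with this block thus rest on very few mice. A random litter block gave -0.22 and kept the call, at an adjusted p of 0.0177. The fixed block left 15 genes past the threshold in place of 2796.

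Foxp2 and Foxp1 did not pass the threshold over these days. From 15 to 21 days Foxp2 differed by -0.07 (95% confidence interval -0.21 to 0.07, adjusted p = 0.466 in limma) and Foxp1 by -0.01 (-0.16 to 0.13, adjusted p = 0.922). With litter as a fixed replicate block these values were larger, at -0.39 for Foxp2 (SE 0.15, adjusted p = 0.457) and -0.35 for Foxp1 (SE 0.18, adjusted p = 0.554), and from 15 to 18 days Foxp1 was at -0.81 (SE 0.27, adjusted p = 0.894). These values, too, come only from litters 10 and 12 of line Ko, and so from very few mice. Mean Foxp1 was 11.3 at 15 days, 11.2 at 18 days and 11.3 at 21 days, and mean Foxp2 9.57, 9.59 and 9.45 with the ko mice included.

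**Figure D5:**
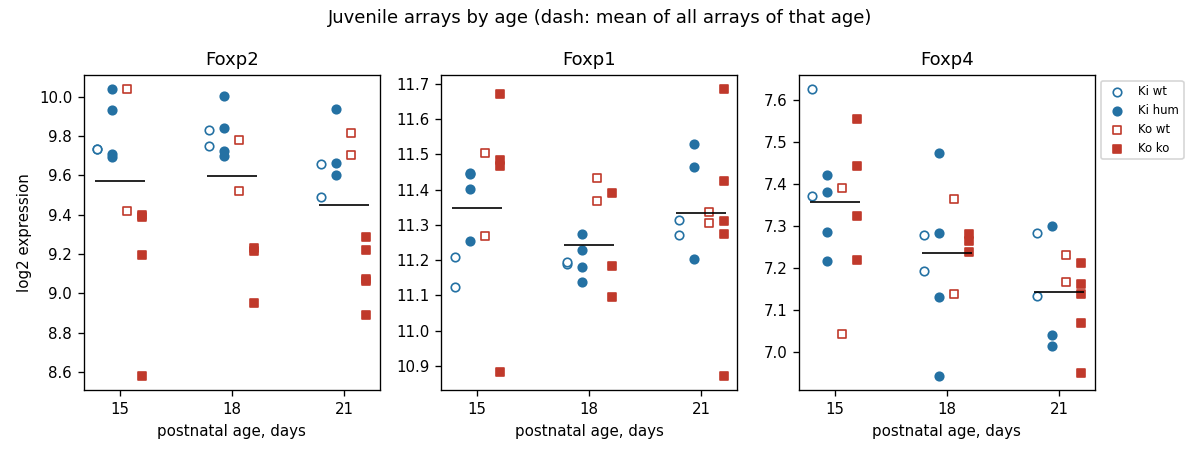
Log2 expression (vertical axes) of each gene in the 35 juvenile arrays by postnatal age in days (horizontal axis), with a dash at the mean of each age. The ko arrays (filled squares) form the lower Foxp2 band at each age, and the Foxp4 mean goes from 7.36 over 7.23 to 7.14.

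Whether the genes varied together from mouse to mouse was asked of the residuals left by the fits, in 9 correlations over pairs of genes within a stage. The permutations treated the residuals of all arrays as independent, although some arrays share litters, so their p may be too small. In juveniles Foxp1 and Foxp4 varied in opposite directions (Pearson r = -0.59, Spearman rho = -0.62, n = 35; permutation p adjusted over the 9 of 0.00234 and 0.0009). Without the 2 arrays farthest from the median r was -0.61, and within runs 1, 2 and 3 it was -0.68, -0.54 and -0.56. With only the group means removed, r was -0.40 (adjusted permutation p = 0.0384). The rho was then -0.36 and missed the threshold (adjusted permutation p = 0.0772). Of the 9460 genes compared, Foxp4 was the 107th most opposed to Foxp1 in juveniles. In the other direction, Foxp1 was the 241st most opposed to Foxp4.

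In embryos the same pair varied in the same direction (r = 0.57, adjusted permutation p = 0.0126; rho = 0.39, adjusted permutation p = 0.230; n = 25). Without the 2 farthest arrays r was 0.38, so this relation rests in part on those arrays. Within runs 4 and 5 it was 0.43 and 0.74. The difference between the juvenile and the embryonic correlation was not tested. With only the genotype group means removed, and neither run nor sex in the fit, the embryonic r were 0.91 for Foxp2 with Foxp1, 0.86 for Foxp2 with Foxp4 and 0.96 for Foxp1 with Foxp4.

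Foxp2 and Foxp1 had an r of 0.36 in juveniles (rho = 0.28, n = 35; adjusted permutation p of 0.0955 and 0.230), which became 0.15 without the 2 farthest arrays. The other 6 correlations, with r from -0.29 to 0.35, did not pass the threshold either; the 3 in adults rest on 11 arrays each.

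Over the residuals of all 71 arrays, the genes most like Foxp2 were ENSMUSG00000040339_at (r = 0.68) and ENSMUSG00000046699_at (r = 0.68), and those most opposed were ENSMUSG00000073423_at (r = -0.63) and ENSMUSG00000020811_at (r = -0.61). Foxp1 came 1074th of 9460 genes in likeness to Foxp2 with r = 0.31, and Foxp4 7119th with r = -0.19. The strongest correlations of any gene with Foxp1 were 0.68 and -0.66, and with Foxp4 0.72 and -0.68. Some of these pooled values differed by stage. The gene most like Foxp1 had r of 0.29 in juveniles, 0.78 in embryos and 0.84 in adults. For Foxp2, ENSMUSG00000046699_at had 0.63, 0.44 and 0.90 in the same order, and ENSMUSG00000040339_at had 0.70, 0.55 and 0.79. These values are a description over arrays that share runs and groups.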

How the data were processed

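The deposited table holds log2 expression values of 15768 genes on 71 1-colour arrays hybridised with biotinylated cRNA, per the labels. How background, normalization and probe summary were handled, and on which genome build, is not stated in these sources; gene names of the members come from their Ensembl identifiers. Differences were fitted with limma 3.58.1 (R 4.3.3; lmFit, eBayes with intensity trend) over 9461 genes after dropping the 40% with the lowest means over the 71 arrays. P-values were adjusted by Benjamini-Hochberg over these genes, with a threshold of 0.05. Juvenile fits had terms for line and genotype group, age, sex and run, embryonic fits for genotype, sex and run, adult fits for genotype, and fits over stages for stage and genotype group and sex. Confidence intervals are at 95%. Correlations of residuals used 100000 permutations, made freely over the arrays of a stage without regard to litter.

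Arrays hold single animals, except 1 whose label names 2 litters, so p-values measure the spread between animals of these litters, and the number of arrays limits the precision. Per the labels, only a part of the litters held animals of both genotypes. The correlation within litters was 0.23 in juveniles, 0.0049 in embryos and -0.06 in adults. The replicate numbers of line Ki2 in the labels only name animals. The genes with a like pattern were to be the 5 highest and 3 lowest correlations; as their identifiers have no names here, the first 2 of each are named for Foxp2. Prepared lists of striatal, pathway and marker genes could not be used, since 0 identifiers matched a symbol. Members and lists were chosen with earlier results of these data known. The fits were tested on simulated data.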

Additional observations from a re-analysis of the deposited data

Results flagged for a closer look

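The effect of the humanised allele on Foxp2 differed from the effect of the knock-out allele in juveniles by 0.70 on the log2 scale, by the test of that difference (SE 0.12, adjusted p = 0.0215 in limma). Levels of the 3 genes were also searched for a single array far from the rest of its group in the 12 sets of a gene and a group with 4 to 10 arrays, and none was found. The larger groups, which are the ko juveniles, the hum juveniles of line Ki and the embryos, were not searched.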

How the results depend on the processing

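Of 757 values recomputed under alternatives, 694 kept their direction and their side of the threshold, 36 turned direction, 19 lost the threshold and 8 gained it. No result that had passed the threshold turned direction, and 2 of the turned values passed the threshold themselves: Foxp1 of adults against run 5 embryos, and the embryonic correlation of Foxp2 and Foxp4. All adjusted p are from limma unless a correlation is named, and the cause of a change was not tested. Single runs and line Ko alone were fitted on fewer arrays (11, 12 or 18), whereas differences by age and by sex came from fits of all 35 juvenile arrays.

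The fall of Foxp2 in ko mice (-0.59) missed the threshold at -0.49, -0.58 and -0.70 in runs 1, 2 and 3, at -0.59, -0.63 and -0.56 at 15, 18 and 21 days, at -0.57 in females, -0.61 in males and -0.60 in line Ko alone (adjusted p 0.0709 to 1.0). With litter as a random or fixed replicate block it was -0.58 and -0.55 and passed. The hum minus ko effect on Foxp2 missed it at 0.69 without run and at 0.69, 0.79 and 0.77 in runs 1, 2 and 3. The fall of Foxp4 from 15 to 21 days missed it at -0.15 with litter as a fixed replicate block, at -0.36, -0.15 and -0.10 in runs 1, 2 and 3, and at -0.18 and -0.25 in lines Ko and Ki alone.

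From embryo to adult, Foxp2 passed the threshold at -0.47 with median centring, -0.51 without sex, -0.80 in wild types alone and -1.10 against run 5, and turned to 0.10 against run 4; with array quality weights it shrank to -0.074 (adjusted p = 0.699). Leaving out each adult in turn gave -0.45 to -0.31, and only without hum replicate 6 did it pass. Foxp1 passed at 0.62 with array quality weights and 0.93 against run 4, turned to -0.42 against run 5, and shrank to 0.080 without sex and to 0.15 in wild types alone. Foxp4 was -0.72 with array quality weights and -1.34 without sex, past the threshold in both. For the adult hum difference of Foxp2, leaving out each adult gave 0.28 to 0.58 (adjusted p 0.396 to 0.952), with the lowest value without wt replicate 1, and array quality weights gave 0.22 (adjusted p = 0.523).

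The other turned values belong to results that did not pass the threshold. For the hum difference in embryos, Foxp2 (-0.01) was 0.0019 with median centring, 0.0057 with array quality weights, 0.023 without sex, 0.024 without run and 0.21 in run 4, where Foxp1 was 0.085 and Foxp4 0.071. The ko difference of Foxp1 was 0.012 in run 3 and 0.017 at 15 days, and that of Foxp4 -0.14 at 21 days and -0.013 in females. The change of the ko difference from 15 to 21 days was -0.076 with array quality weights and -0.054 without run for Foxp2, and 0.0061 with quantile normalization, 0.021 with the litter block and 0.0093 without run for Foxp1. Its sex dependence was -0.021 with median centring, -0.027 with array quality weights and -0.061 with the litter block for Foxp1, and -0.059 with the litter block for Foxp4. In line Ki juveniles the hum difference was -0.014 for Foxp1 in run 2 and 0.096 for Foxp4 in run 3, where the hum minus ko effect on Foxp4 was 0.049. The wild types of lines Ki and Ko differed in Foxp2 by 0.0098 with the random litter block and 0.14 in run 1. From 15 to 21 days Foxp1 was 0.22 in run 1 and 0.043 in line Ki, and Foxp2 0.019 in run 2; from 15 to 18 days Foxp4 was 0.27 with the fixed litter block. That block also gave -0.39 for Foxp2 and -0.35 for Foxp1 from 15 to 21 days, and -0.81 for Foxp1 from 15 to 18 days, none past the threshold. With it, ages are compared only within litters 10 and 12. Male minus female was 0.23 for Foxp2 in embryos without run and -0.0073 for Foxp1 in line Ki juveniles. The hum effect in adults minus that in embryos was 0.023 for Foxp1 with array quality weights and 2.5e-05 for Foxp4 without sex. With group means alone removed, the embryonic correlation of Foxp2 was 0.91 with Foxp1 and 0.86 with Foxp4.

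Replicate numbers in the labels of line Ki2, used as a replicate block, changed no call of the 3 genes, with 0.35 for Foxp2 in adults. Without the pooled array, and without the array at odds with its sex label, no call changed. The number of genes past the threshold from 15 to 21 days was 2796 in all juveniles and 15 with litter as a fixed block, which compares ages only within litters 10 and 12. Alternatives in which a comparison could not be estimated gave no value. Foxp4 also had no value with the dimmest 60% of rows dropped. Its mean over all arrays stood at percentile 58.5 of all genes, so that filter removed it.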
